A study of Rattus norvegicus with 24 samples.

Results

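The collagen genes were taken as every gene in the deposited tables whose symbol is Col, digits, the letter a and digits, with nothing more. Of 37403 identifiers in each table, 44 met this rule. By the textbook classes of their chains, 11 are fibrillar, 6 belong to type IV of basement membranes and 27 are of other types. RNA was sequenced from bilateral punches of the ventral tegmental area (VTA), which holds midbrain dopamine neurons, and of the nucleus accumbens (NAC), the part of the ventral striatum to which they project. All libraries came from adult F1 rats of postnatal day 60 or older, which the labels call male, and the rats themselves are not labelled as given any drug. MOR-sired rats had fathers that self-administered morphine for 60 days, and SAL-sired rats had fathers that self-administered saline for as long. There were 5 MOR-sired and 5 SAL-sired VTA libraries, and 7 MOR-sired and 7 SAL-sired NAC libraries. The labels name no animal or litter, so the p-values below measure the spread between these libraries, and it is not given whether VTA and NAC punches came from the same rats.

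Collagens are extracellular proteins wound from 3 chains into a triple helix, each chain being the product of a collagen gene. Fibrillar collagens form the banded fibrils of skin, bone, cartilage and vessel walls, type IV collagens form the sheet of basement membranes, and the other types decorate fibrils, build finer networks or span the cell membrane. In the brain, types I and III are known mainly from the meninges and from fibroblasts around large vessels, type IV from the basement membrane of every vessel, and several minor collagens from neurons and glia.

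Library totals ran from 23.6 to 43.5 M estimated counts in VTA and from 21.9 to 41.3 M in NAC, where 1 M is 1e+06 counts. Summed transcripts of dopamine neuron markers ran from 2970 to 6720 counts per 1e+06 counts (CPM) in VTA and from 29 to 101 CPM in NAC. Summed striatal neuron markers in NAC ran from 230 CPM in MOR-sired NAC 2 to 4680 CPM in MOR-sired NAC 4, so the striatal content of these punches was uneven. The labels say male, yet 4 VTA libraries, of which 3 were MOR-sired (numbers 3, 4 and 5) and 1 was SAL-sired (number 5), held 78.9 to 108 CPM of Xist, the RNA made from an inactive X chromosome, and at most 0.072 CPM of the Y-linked Ddx3y. The other 20 libraries held at most 0.253 CPM of Xist and at least 28.7 CPM of Ddx3y. SAL-sired VTA 1 and 2 stood apart in another way. Over 11 fibroblast markers that are not collagens, among them Dcn (decorin) and Lum (lumican), they summed to 426 and 240 CPM, against 94.9 to 152 CPM in the other VTA libraries, and no marker of the list was at 0 in any library. Their sums of 5 Schwann cell markers were 171 and 76.4 CPM, against 12.2 to 18.9 CPM in the other VTA libraries. SAL-sired VTA 2 also had the highest sum of cortical glutamatergic neuron markers in VTA, 131 CPM. The medians of that sum were 12.4 CPM in SAL-sired VTA and 11.8 CPM in MOR-sired VTA libraries. SAL-sired VTA 3 and 4 held 0.955 and 0.842 CPM of summed serotonin neuron markers, against 26.5 to 263 CPM in the other VTA libraries, and these sums also separated the sire groups, at 99.7 to 263 CPM in MOR-sired VTA and 0.842 to 93.8 CPM in SAL-sired VTA libraries. In NAC, SAL-sired NAC 7 had the highest fibroblast sum, 133 CPM, against 58.7 to 87.7 CPM in the other NAC libraries. It also had the highest mural and endothelial sums in NAC, at 327 and 251 CPM. Its choroid plexus sum was 860 CPM, against at most 374 CPM in MOR-sired NAC and a median of 34.3 CPM in SAL-sired NAC libraries.

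Shown first are 4 stretches that lie before the starts of collagen genes. They were chosen because Col4a1 and Col4a2 lie head to head and are the main type IV chains, because Col11a2 and Col11a1 had the smallest p among collagens in the NAC sire comparison, and because Col1a2 was the type I chain with the highest level in a single VTA library. All are RefSeq sequences of assembly GRCr8, of which 35 of the 44 genes had a promoter entry, and each is written 5′ to 3′. The first is the whole gap between the starts of Col4a2 and Col4a1, chr16:84885521-84885596 on the plus strand, which is 76 bases long with 78.9% G or C. Next are the 250 bases before the start of Col11a1, at chr2:204508886-204509135 on the plus strand. Then come the 250 bases before the start of Col11a2, at chr20:4817649-4817898 on the minus strand. The last is from Col1a2, at chr4:33518307-33518406 on the plus strand. It holds only the 100 bases farthest from the start of the 250 before it. Capitals mark matches to CCAAT, to GGGCGG, the core of a GC box, and to TATAAA, with a match on the opposite strand shown as ATTGG or CCGCCC.
Col4a2-Col4a1 gap: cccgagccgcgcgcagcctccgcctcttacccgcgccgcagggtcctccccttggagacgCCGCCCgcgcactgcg
Col11a1: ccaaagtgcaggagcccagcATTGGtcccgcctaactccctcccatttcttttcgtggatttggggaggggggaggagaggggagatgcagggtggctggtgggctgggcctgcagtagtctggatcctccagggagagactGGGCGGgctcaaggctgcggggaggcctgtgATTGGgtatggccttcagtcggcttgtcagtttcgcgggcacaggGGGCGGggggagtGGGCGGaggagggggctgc
Col11a2: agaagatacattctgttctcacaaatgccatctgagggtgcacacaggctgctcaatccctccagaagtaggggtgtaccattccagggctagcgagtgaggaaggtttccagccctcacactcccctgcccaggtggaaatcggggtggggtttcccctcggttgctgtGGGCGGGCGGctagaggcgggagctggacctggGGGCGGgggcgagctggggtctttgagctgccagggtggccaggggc
Col1a2: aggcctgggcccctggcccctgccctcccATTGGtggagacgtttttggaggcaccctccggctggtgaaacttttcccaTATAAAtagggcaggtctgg

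The gap between Col4a2 and Col4a1 held 1 GC box core and neither a CCAAT nor a TATAAA. The Col11a1 window held 3 GC box cores and 2 CCAAT matches on the opposite strand, and the Col11a2 window held 3 GC box cores, of which 2 overlap, and no other match. The Col1a2 stretch held a CCAAT match that starts 221 bases before the annotated start and a TATAAA that starts 170 bases before it, and no GC box core. The rest of its 250 bases, nearer the start, is not shown, so this stretch cannot be set against the full windows. Over all 33469 promoter windows of 250 bases, and on either strand, CCAAT was present in 34%, GGGCGG in 30.5% and TATAAA in 12.9%. Among 38 windows of collagen genes, 12 held CCAAT, 20 held GGGCGG and 4 held TATAAA. Over the 76 bases nearest the start, the length of the gap, CCAAT was present in 13% of all windows, GGGCGG in 18.1% and TATAAA in 4.61%. In the collagen windows of that length, 2 held CCAAT, 15 held GGGCGG and 1 held TATAAA. These matches describe letters and not bound sites.

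Collagen transcripts spanned from near 0 to above 50 CPM, and most were of low level. The deposited estimates are scaled by transcript length, so their levels in plain CPM can be set side by side between genes. In VTA, 11 collagens averaged at least 10 CPM, 21 lay between 1 and 10 CPM and 12 were under 1 CPM. In NAC the numbers were 7, 21 and 16. The 44 genes summed to 338 CPM in VTA and 253 CPM in NAC, and the 3 highest made up 37.2% of that sum in VTA and 35.6% in NAC.

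The same 2 genes led in both regions. Col11a2, a minor fibrillar chain best known from cartilage and the inner ear, had a mean level of 53.2 ± 14.1 CPM over the 10 VTA libraries and of 52.6 ± 17.6 CPM over the 14 NAC libraries (SD). Col25a1, a collagen that spans the membrane and is known as a component of amyloid plaques, had a mean level of 39.2 ± 7.78 CPM in VTA, against 20.5 ± 4.54 CPM in NAC. Col9a3, a chain of the fibril-associated type IX, came next in both regions with 33.6 ± 4.66 CPM in VTA, against 16.9 ± 2.37 CPM in NAC. The type I and III chains, the most abundant collagens of the body, were not among the leading ones in most libraries. Col1a2 averaged 13.4 ± 17.2 CPM in VTA, where its SD exceeded its mean and single libraries ran from 4.46 to 58.5 CPM. At the other end, Col10a1, Col17a1, Col28a1, Col6a4 and Col6a5 were too low to be tested in any comparison, Col22a1 was too low in the NAC sire comparison and Col26a1 in the VTA sire comparison.

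**Figure D1:**
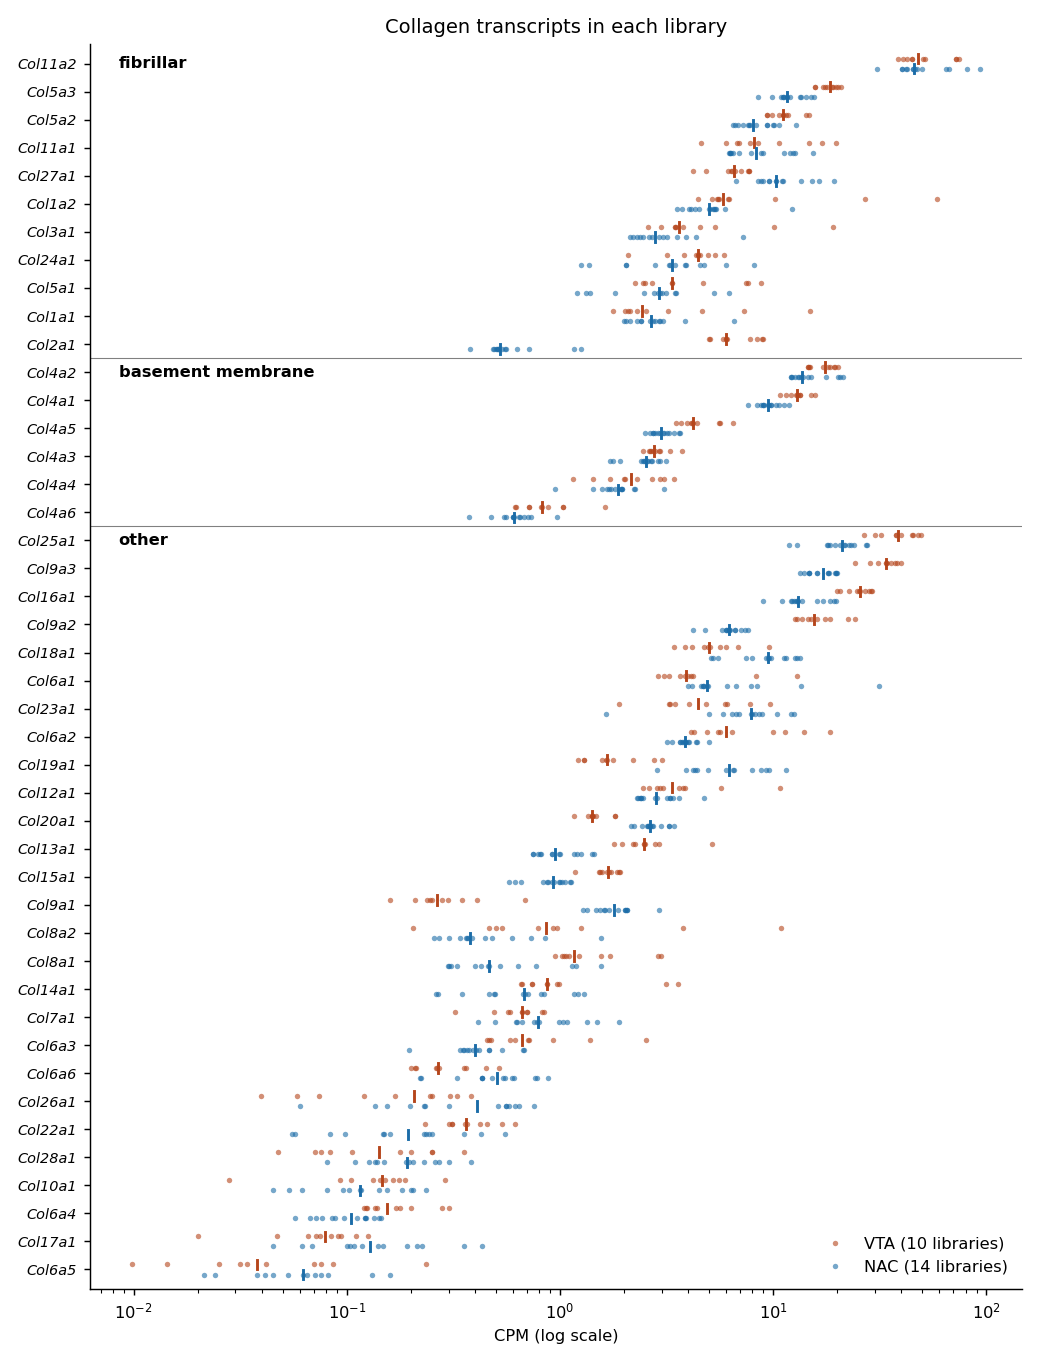
Level in CPM (log axis) of the 44 collagen genes, ordered within the fibrillar, basement membrane and other types by mean level. Each point is 1 library, 10 VTA libraries in orange above 14 NAC libraries in blue, and vertical bars are medians; values of 0 cannot be drawn on a log axis. Col11a2 lies near 50 CPM in both regions, Col2a1 separates the regions without overlap, and Col1a2 has 1 VTA library at 58.5 CPM.

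Between the regions, more collagens were higher than lower in VTA. In edgeR's quasi-likelihood test over the 24 libraries with Benjamini-Hochberg adjustment, 39 collagens were tested, of which 20, or 51.3%, were called higher in VTA and 9, or 23.1%, lower. Of all 20603 genes tested, 34.3% were called higher in VTA and 34.7% lower, and 69% in all, so a call alone sets no gene apart here. At an unadjusted p under 0.05, 21 collagens were higher and 10 lower, against 35.3% and 35.7% of all genes and 71% in all. The median log2 fold change, VTA over NAC, was 0.41 for the collagens tested and 0.02 for all genes. At least 2-fold differences were called for 6 collagens higher in VTA, where 9.97% of all genes were, and for 3 lower, where 10.8% were. On TMM-scaled CPM, 8 collagens were higher in every VTA library than in any NAC library, a pattern that 13.1% of all genes showed, and 3 were lower in every VTA library, as 14.5% were. Region, table and library numbering coincide in this series and cannot be told apart, and in tissue punches fewer cells of a type and less RNA per cell cannot be told apart either. Leaving out SAL-sired VTA 1 and 2, a choice made after seeing the data, gave 15 collagens higher and 10 lower, with a median of 0.24. In that setting 13737 of all 21503 genes tested were called. Without the 4 Xist libraries 21 collagens were higher and 6 lower, and 13028 of all 21986 genes tested were called. The shares of all genes by direction were not computed in these settings. The call of Col14a1, a fibril-associated chain that was higher in VTA, ended without SAL-sired VTA 1 or without SAL-sired VTA 2 (edgeR adjusted p 0.102 and 0.0818).

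Among the fibrillar chains, 5 of 11 were called higher in VTA and 1 lower, with a median log2 fold change of 0.38. Col2a1, the main chain of cartilage fibrils, showed the largest fold of all collagens. Its level ran from 4.73 to 8.76 TMM-scaled CPM over the 10 VTA libraries and from 0.401 to 1.24 over the 14 NAC libraries, so no libraries of the regions overlapped. It averaged 6.69 ± 1.42 in VTA and 0.635 ± 0.248 in NAC (SD), a 10.7-fold difference with a 95% interval of 8.53 to 13.3 and an edgeR adjusted p of 6.05e-15. Col5a3, a type V chain that helps set fibril width, averaged 18 ± 1.55 TMM-scaled CPM in VTA and 12.2 ± 1.82 in NAC, also without overlap (1.48-fold, edgeR adjusted p 1.09e-07). Col27a1, a minor fibrillar chain of cartilage, was the only fibrillar chain called lower, at 6.38 ± 1.1 in VTA and 11.5 ± 3.34 in NAC (0.564-fold, edgeR adjusted p 3.92e-06).

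Col11a2 had a log2 fold change of 0.01 ± 0.13 (SE) between the regions, with a 95% interval of the fold from 0.834 to 1.21 and an adjusted p of 0.961. Its partner chain Col11a1 had a 1.11-fold value with an interval of 0.837 to 1.48. The calls for types I and III rested on 2 libraries. Col1a2 was called 2.03-fold higher in VTA (edgeR adjusted p 0.00363) and Col3a1, the vessel wall collagen, 1.66-fold higher (edgeR adjusted p 0.011). Without SAL-sired VTA 1 and 2 their log2 fold changes were 0.24 and 0.23 with edgeR adjusted p of 0.198 and 0.287, and neither was called. Leaving out SAL-sired VTA 1 alone also ended the call of Col3a1, at a log2 fold change of 0.44. Col1a1 was not called, and its log2 fold change of 0.38 became -0.14 without those 2 libraries.

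Of the 6 type IV chains, 3 were called higher in VTA and none lower, with a median log2 fold change of 0.32. Col4a1, present in every vascular basement membrane, ran from 11.2 to 15 TMM-scaled CPM in VTA and from 7.82 to 11.8 in NAC. The ranges overlapped between 11.2 and 11.8, and the 1.33-fold difference had an edgeR adjusted p of 2.37e-06. Col4a5 was 1.46-fold higher (edgeR adjusted p 3.85e-06) and Col4a6, which pairs with it in some basement membranes, 1.36-fold higher (edgeR adjusted p 0.0123). Col4a2, which joins Col4a1 in the same trimer, had a 1.11-fold value with an interval of 0.988 to 1.25 (edgeR adjusted p 0.104). It was called when the replicate number entered the fit as a block, with an adjusted p of 0.0451, under upper-quartile scaling, in the SAL-sired libraries alone, and when MOR-sired NAC 2 or 6 was left out. Endothelial markers differed in the same direction as these chains. Of 11 in the list, 10 were called higher in VTA, and their sums ran from 287 to 392 CPM in VTA and from 194 to 251 CPM in NAC. The part of this difference in the type IV result was not tested.

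Among the fibril-associated collagens, the chains of 1 protein differed in direction. Type IX collagen is built from the chains of Col9a1, Col9a2 and Col9a3. Col9a2 averaged 16.4 ± 3.29 TMM-scaled CPM in VTA and 6.27 ± 0.86 in NAC (2.62-fold, edgeR adjusted p 9.68e-12), and Col9a3 33.2 ± 4.44 in VTA and 17.1 ± 2.22 in NAC (1.94-fold, edgeR adjusted p 1.99e-10). Col9a1 went the other way, at 0.304 ± 0.137 in VTA and 1.84 ± 0.404 in NAC (0.166-fold, edgeR adjusted p 2.58e-11). None of the 3 chains overlapped between regions, and Col9a1 was the scarcest of them in both.

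Of the other fibril-associated genes, Col16a1 averaged 24.9 ± 3 TMM-scaled CPM in VTA and 14.4 ± 3.16 in NAC (1.74-fold, edgeR adjusted p 4.04e-08). Col19a1, described in mouse brain as a product of interneurons that shapes synapses, was lower in VTA, at 1.81 ± 0.535 against 6.56 ± 2.61 in NAC (0.277-fold, edgeR adjusted p 1.46e-07). Col20a1 was lower too, at 0.525-fold (edgeR adjusted p 4.18e-10). On TMM-scaled CPM every VTA library lay below every NAC library for both, and on plain CPM Col19a1 overlapped, at 3 CPM in SAL-sired VTA 3 against 2.84 CPM in MOR-sired NAC 4.

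The membrane-spanning collagens split. Col25a1 was 1.87-fold higher in VTA (edgeR adjusted p 1.18e-06), at 38.6 ± 7.62 TMM-scaled CPM against 20.7 ± 4.4 in NAC, and Col13a1, a collagen of the neuromuscular junction, was 2.51-fold higher (edgeR adjusted p 1.11e-07). Col23a1 was called lower at 0.63-fold (edgeR adjusted p 0.0332), a call that ended when any of 9 single libraries was left out (MOR-sired VTA 3, 4 or 5, SAL-sired VTA 3, 4 or 5, MOR-sired NAC 3 or 5, or SAL-sired NAC 4), with edgeR adjusted p of 0.0518 to 0.0664. The multiplexins, basement membrane proteoglycans from whose ends fragments such as endostatin are cut, split as well. Col15a1 was 1.8-fold higher in VTA (edgeR adjusted p 1.59e-07) and Col18a1, the source of endostatin, lower at 0.553-fold (edgeR adjusted p 6.21e-05).

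Type VI collagen forms beaded filaments around cells from the chains of Col6a1, Col6a2 and a further chain. Col6a2 was 1.93-fold higher in VTA (edgeR adjusted p 6.07e-07) and Col6a3 1.92-fold higher (edgeR adjusted p 0.00225), while Col6a6 was called lower at 0.582-fold (edgeR adjusted p 0.00208) and Col6a1 had a fold of 0.621 with an edgeR adjusted p of 0.0624. The short-chain network collagens of Descemet's membrane and vessels were higher, Col8a2 by 2.72-fold (edgeR adjusted p 0.00385) and Col8a1 by 2.31-fold (edgeR adjusted p 0.00051). The call of Col8a2 ended without SAL-sired VTA 1 and 2, at a log2 fold change of 0.47 and an edgeR adjusted p of 0.201. Of the 11 fibroblast markers, 7 were called higher in VTA and none lower, and their part in these results was not tested.

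**Figure D2:**
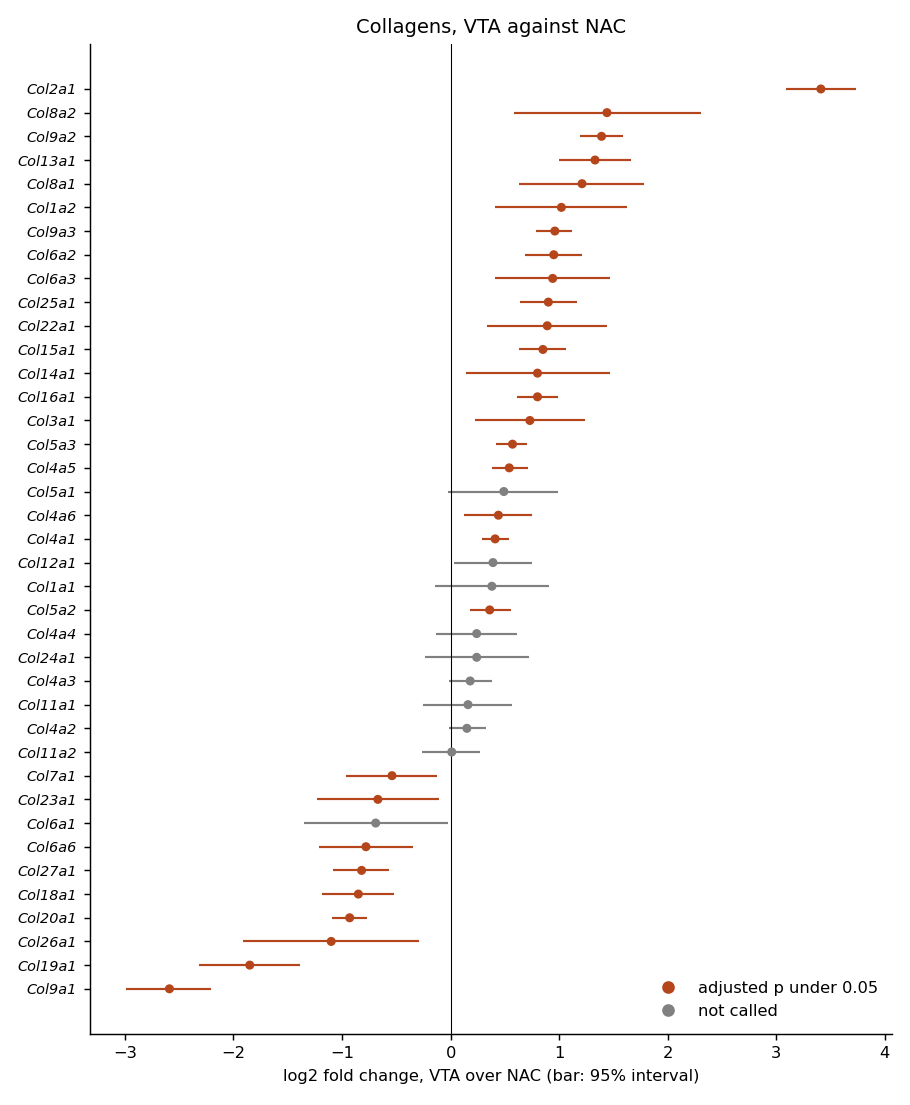
Log2 fold change, VTA over NAC, of the 39 tested collagens with 95% intervals, ordered by size. Orange marks an adjusted p under 0.05. Col2a1 lies at 3.41 and Col9a1 at -2.59, and Col11a2 lies at 0.01.

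The genes that make, cut, bind and degrade collagen were taken from 5 lists of their roles. Over the lists together 60 genes were tested, of which 50% were called higher in VTA and 25% lower, 75% in all, near the 69% called over all genes. Of 18 genes of chain folding and modification, 10 were called higher in VTA and 4 lower, with a median log2 fold change of 0.22. Plod2, a lysyl hydroxylase whose product sets the type of crosslink, averaged 9.12 ± 1.65 TMM-scaled CPM in VTA and 1.95 ± 0.432 in NAC (4.66-fold, edgeR adjusted p 1.51e-13). P4ha3, a subunit of prolyl 4-hydroxylase, which stabilises the helix, was lower in VTA at 1.4 ± 0.276 against 7.01 ± 2.61 in NAC (0.201-fold, edgeR adjusted p 1.02e-08). Crtap, a partner of prolyl 3-hydroxylase, was 1.83-fold higher (edgeR adjusted p 6.93e-11).

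Of 11 tested genes of procollagen processing and crosslinking, 4 were called higher and 3 lower. Tll1, a protease of the family that removes the C-terminal propeptide, averaged 16.2 ± 3.48 TMM-scaled CPM in VTA and 1.79 ± 0.365 in NAC (9-fold, edgeR adjusted p 6.18e-16). Adamts3, a protease of the family that removes the N-terminal propeptide, went the other way at 1.2 ± 0.209 in VTA and 13.1 ± 5.45 in NAC (0.0925-fold, edgeR adjusted p 1.8e-11). Loxl4, a lysyl oxidase of crosslinking, was lower at 0.413-fold (edgeR adjusted p 0.000295) and was not called in the SAL-sired libraries alone. SAL-sired VTA 2 held 0.798 CPM of Loxl4, against 0.061 to 0.21 CPM in the other VTA libraries.

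Of 9 tested receptors, 4 were higher and 3 lower. Itgb1, the beta chain shared by the collagen-binding integrins, was at 73.5 ± 8.07 TMM-scaled CPM in VTA and 47.2 ± 2.98 in NAC (1.56-fold, edgeR adjusted p 1.18e-10), and the alpha chains Itga11 and Itga10 were lower at 0.281-fold (edgeR adjusted p 1.64e-08) and 0.34-fold (edgeR adjusted p 7.39e-07). Of 7 tested genes of degradation, 3 were higher and 2 lower, the lower ones being Ctsk, the collagen-cutting cathepsin K, at 0.478-fold (edgeR adjusted p 8.89e-06) and Mmp9, a gelatinase, at 0.133-fold (edgeR adjusted p 0.000651). Timp1, an inhibitor of such proteases, was 1.95-fold higher (edgeR adjusted p 0.00106). Mmp9 levels were low, at 0.131 ± 0.309 TMM-scaled CPM in VTA and 0.725 ± 0.413 in NAC. SAL-sired VTA 2 held 1.05 CPM of Mmp9, against 0 to 0.117 CPM in the other VTA libraries. Mmp9 was not called in the SAL-sired libraries alone. Of 15 partners of type IV in basement membranes, 9 were higher and 3 lower. The laminin chain Lamb3 was 8.87-fold higher, at 10.7 ± 2.47 against 1.2 ± 0.55 in NAC (edgeR adjusted p 4.27e-11), and the laminin chain Lama3 4.11-fold higher (edgeR adjusted p 7.14e-10).

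The study asked what a father's morphine exposure does to these regions in his offspring, and each region was therefore also tested for MOR-sired against SAL-sired libraries. In VTA no collagen passed the adjusted threshold in edgeR's quasi-likelihood test, and neither did any of the 19923 genes tested. The smallest adjusted p was 0.793 for a collagen and 0.223 for any gene. At an unadjusted p under 0.05 there were 9 of 38 collagens, or 23.7%, against 5.31% of all genes. All 9 had a negative log2 fold change, that is, lower values in MOR-sired libraries, against 2.56% of all genes with negative and 2.75% with positive values at that threshold. DESeq2 called 27 genes, 1 of them a collagen, and limma-voom with quality weights called 0. Of the 38, 30 were negative, and the median log2 fold change was -0.18, against -0.01 over all genes.

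Col6a2 had the smallest p of them. MOR-sired VTA libraries held 4.12, 4.27, 5.61, 4.89 and 6.43 CPM, and SAL-sired VTA libraries 18.4, 10, 11.4, 13.9 and 5.51 CPM. All MOR-sired libraries lay below 4 of the 5 SAL-sired ones, and SAL-sired VTA 5 lay among them. The log2 fold change was -1.14 ± 0.27 (SE) with an edgeR p of 0.00143 before and 0.793 after adjustment. DESeq2 gave an adjusted p of 0.0204 and so called it, and over all alternatives the adjusted p ran from 0.0204 to 1 and the log2 fold change from -1.51 to -0.92, left-out single libraries included.

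Col5a1, the type V chain that starts fibril assembly, had 2.69, 2.5, 3.35, 2.45 and 3.34 CPM in MOR-sired VTA libraries, against 7.61, 4.7, 7.5, 8.76 and 2.26 CPM in SAL-sired VTA libraries. Here too 4 SAL-sired libraries lay above all MOR-sired ones and SAL-sired VTA 5 lay below them (log2 fold change -1.02 ± 0.3, edgeR adjusted p 0.793). SAL-sired VTA 5 is the only library of its group with Xist. Col18a1 was the 1 collagen whose groups did not overlap in VTA, a pattern shown by 0.908% of all genes. It had 4.72, 3.43, 4.96, 3.86 and 4.15 CPM in MOR-sired libraries, against 9.56, 6, 5.61, 6.88 and 5.07 CPM in SAL-sired libraries (log2 fold change -0.57 ± 0.17, edgeR adjusted p 0.793).

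Col8a2 and Col1a2 had the largest fold changes of the tested collagens, and 2 libraries carried them. Col1a2 was at 6.2, 5.15, 4.46, 5.56 and 5.44 CPM in MOR-sired VTA libraries, against 58.5, 27.1, 6.14, 10.2 and 5.52 CPM in SAL-sired VTA libraries. SAL-sired VTA 1 and 2, the libraries with the high fibroblast and Schwann sums, were the highest, SAL-sired VTA 4 was also above all MOR-sired libraries, and SAL-sired VTA 3 and 5 lay within their range. Col8a2 followed the same order, at 0.535, 0.205, 0.966, 0.466 and 0.785 CPM against 10.9, 3.79, 0.93, 1.26 and 0.502 CPM in SAL-sired libraries. The log2 fold changes were -1.91 ± 0.62 for Col1a2 and -2.45 ± 0.8 for Col8a2, with edgeR adjusted p of 0.845 and 0.851. Without SAL-sired VTA 1 and 2 they were -0.35 and -0.5. The 11 fibroblast markers were all negative in the same comparison, 6 at an unadjusted p under 0.05, with a median of -1.05. All 3 serotonin neuron markers were positive at an unadjusted p under 0.05, with a median of 2.4 and sums that did not overlap between the sire groups. The part of either list in the collagen values was not tested.

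Leaving out SAL-sired VTA 1 and 2 together left 3 collagens at an unadjusted p under 0.05 with lower values in MOR-sired libraries, namely Col6a2 (log2 fold change -0.93, p 0.00676 before adjustment by edgeR), Col5a1 (-1.01, p 0.0214) and Col18a1 (-0.39, p 0.0214). It left 1 with higher values, Col24a1 (0.57, p 0.0288), and 24 of 38 negative, with a median of -0.06. SAL-sired VTA 3, 4 and 5, which remained, held 11.4, 13.9 and 5.51 CPM of Col6a2 and 7.5, 8.76 and 2.26 CPM of Col5a1. They held 5.61, 6.88 and 5.07 CPM of Col18a1. SAL-sired VTA 3 and 4 are also the libraries with the lowest serotonin neuron sums, and the part of this in these values was not tested. Without the 4 Xist libraries 5 collagens were at an unadjusted p under 0.05 with lower values and 30 were negative, and with Xist as a covariate 2 and 26. The shares of all genes at that threshold were not computed under these settings, so the counts have no background beside them. The type IV chains had a median log2 fold change of -0.05 and none was at that threshold. Col4a1 was at 12.8, 12.1, 13.1, 10.8 and 13.3 CPM in MOR-sired VTA libraries and at 15.7, 15, 13.4, 12.9 and 11.5 CPM in SAL-sired ones, so the groups overlapped.

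**Figure D3:**
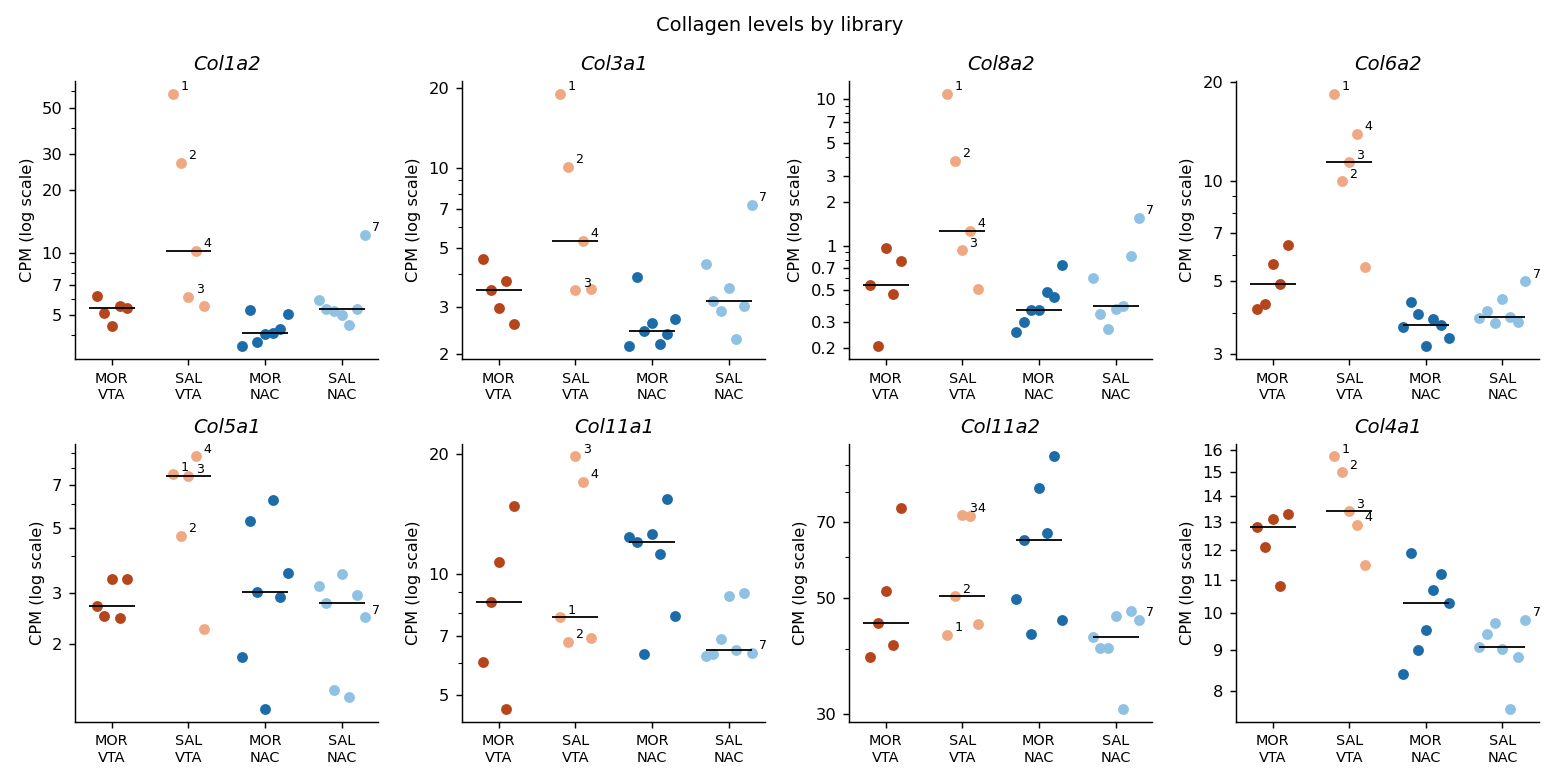
Level in CPM (log axis) of 8 collagens in each library, in MOR-sired VTA, SAL-sired VTA, MOR-sired NAC and SAL-sired NAC. Points are libraries, lines are medians, and numbers mark SAL-sired VTA 1 to 4 and SAL-sired NAC 7. SAL-sired VTA 1 and 2 are highest for Col1a2, Col3a1 and Col8a2, whereas Col6a2 and Col5a1 are also high in SAL-sired VTA 3 and 4.

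In NAC no collagen and no gene passed the adjusted threshold among 18220 genes tested by edgeR, and the smallest adjusted p was 0.56. DESeq2 called 4 genes and limma-voom with quality weights 52, with no collagen among them. No collagen had groups without overlap in NAC, as 0.0659% of all genes did. At an unadjusted p under 0.05 there were 11 of 38 collagens, or 28.9%, against 6.18% of all genes. Of these, 8 had higher values in MOR-sired libraries and 3 lower values, against 4.39% and 1.79% of all genes. Over the 38, 25 were positive and 13 negative, with a median log2 fold change of 0.14, against 0 over all genes. Fibrillar chains made up 8 of the 11, with 5 positive and 3 negative.

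The positive ones were led by Col11a2 and Col11a1, 2 genes of type XI collagen, which nucleates thin fibrils. Col11a2 ran from 42.7 to 93.5 CPM with a median of 64.6 CPM in the 7 MOR-sired NAC libraries, and from 30.7 to 47.3 CPM with a median of 42.2 CPM in the 7 SAL-sired ones. The groups overlapped between 42.7 and 47.3 CPM, and 5 MOR-sired libraries lay above all SAL-sired ones. The log2 fold change was 0.58 ± 0.16 (edgeR p 0.00263 before and 0.56 after adjustment). Col11a1 ran from 6.31 to 15.4 CPM with a median of 12 CPM in MOR-sired libraries, and from 6.23 to 8.99 CPM with a median of 6.46 CPM in SAL-sired ones, with a log2 fold change of 0.61 ± 0.17 (edgeR adjusted p 0.56). Again 5 MOR-sired libraries lay above all SAL-sired ones.

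The other positive ones were Col27a1 (log2 fold change 0.51), Col2a1 (0.57) and Col5a3 (0.24) of the fibrillar chains, Col4a2 (0.35) of type IV, and Col16a1 (0.39) and Col9a1 (0.37) of the fibril-associated ones. Col4a2 ran from 12.1 to 21.2 CPM with a median of 17.8 CPM in MOR-sired NAC libraries and from 12.1 to 14.6 CPM with a median of 13.2 CPM in SAL-sired ones. Its partner Col4a1 had a log2 fold change of 0.15 and was not at that threshold. MOR-sired NAC libraries were also the more uneven in neuron markers, since both the lowest and the highest striatal sum belonged to them, and the part of this in the collagen values was not tested.

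The negative ones were the type I and III chains. Col1a2 ran from 3.54 to 5.3 CPM with a median of 4.1 CPM in MOR-sired NAC libraries and from 4.47 to 12.2 CPM with a median of 5.35 CPM in SAL-sired ones, of which SAL-sired NAC 7 was the highest. Its log2 fold change was -0.55 ± 0.2 (edgeR adjusted p 0.68), that of Col1a1 -0.54 and that of Col3a1 -0.54. SAL-sired NAC 7 held the highest NAC sums of fibroblast, choroid plexus, mural and endothelial markers, and their part in these values was not tested. Without that library the log2 fold changes were -0.3 with an edgeR p of 0.0171 before adjustment, -0.31 with 0.0388 and -0.31 with 0.0843. In limma-voom with quality weights, 12 collagens were positive and none negative at an unadjusted p under 0.05. The share of all genes at that threshold was not computed for limma-voom or without SAL-sired NAC 7. Of the 11 fibroblast markers, 10 were negative, 1 of them at an unadjusted p under 0.05.

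One library decided the mean of Col6a1. It was at 31.3 CPM in MOR-sired NAC 2 and 13.5 CPM in MOR-sired NAC 7, against 3.97 to 8.36 CPM in the other NAC libraries, and the 2 groups' medians were 4.95 CPM in MOR-sired and 4.89 CPM in SAL-sired NAC libraries.

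**Figure D4:**
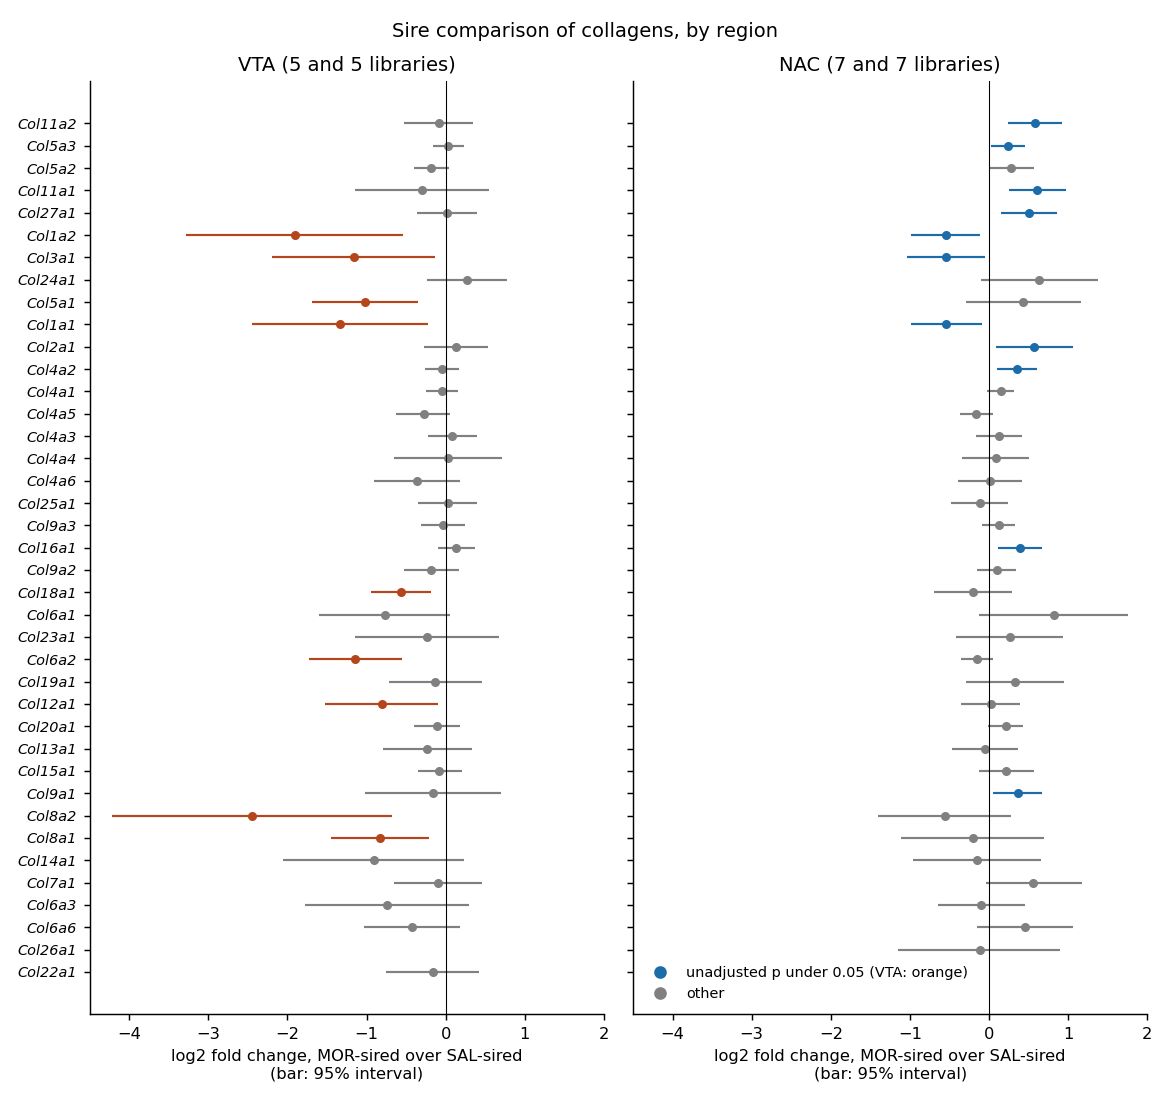
Log2 fold change, MOR-sired over SAL-sired, of the tested collagens in VTA (left) and NAC (right) with 95% intervals. Colour marks an unadjusted p under 0.05, orange in VTA and blue in NAC. No gene passed after adjustment in either region. Col8a2 lies at -2.45 and Col1a2 at -1.91 in VTA, and Col11a1 lies at 0.61 in NAC.

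Whether the sire effect differed by region, VTA minus NAC, was tested directly with an edgeR contrast over the 24 libraries, which uses the same libraries as the comparisons within regions. No collagen and no gene was called by edgeR or by limma-voom, and DESeq2 called 93 genes, none of them a collagen. The smallest adjusted p was 0.485 for a collagen, Col6a2, and 0.421 for any gene. At an unadjusted p under 0.05 there were 12 of 39 collagens, all negative, against 4.78% of all genes, 2.72% with negative and 2.05% with positive values. Of the 39 collagens, 38 had a negative difference and Col25a1 a positive one, with a median of -0.47 against 0 over all genes. Col6a2 had -0.98 ± 0.26, Col5a1 -1.44 ± 0.49 and Col11a2 -0.66 ± 0.26 on the log2 scale. Without SAL-sired VTA 1 and 2 the number of negative differences was 28 and the median -0.18. The values of Col1a1, Col1a2 and Col3a1 then turned positive, at 0.26, 0.2 and 0.4.

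The lists of collagen-related genes held no called gene for sire in either region by edgeR. At an unadjusted p under 0.05 there were 4 of 59 in VTA, or 6.78%, and 5 of 59 in NAC, or 8.47%, near the 5.31% and 6.18% of all genes. In VTA, Adamts2, which removes the N-terminal propeptide of type I, had a log2 fold change of -1.31 (p 0.0182 by edgeR), Itga11 had -1.23 (p 0.00411), the laminin chain Lamb1 -0.58 (p 0.0202) and the type III collagen receptor Adgrg1 0.14 (p 0.024). SAL-sired VTA 3 and 4 carried the value of Adamts2, at 11 and 20.1 CPM against 1.85 to 5.23 CPM in the other VTA libraries, and leaving out 1 library moved it between -1.51 and -0.74. In NAC the 5 were P3h3, a prolyl 3-hydroxylase, at 0.54 (p 0.00302 by edgeR), Agrn (agrin) at 0.23 (p 0.00147), Itga1 at -0.25 (p 0.0121), and the inhibitors of metalloproteinases Timp2 at -0.19 and Timp3 at -0.14. After adjustment none was under 0.05.

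Chains of 1 protein were then compared with each other. Type I collagen holds Col1a1 and Col1a2 chains in unequal number, with more of the alpha 1 chain. On the length-scaled level the ratio of Col1a1 to Col1a2 transcripts was below 1 in every library, with a median of 0.389 in VTA and 0.551 in NAC. The ratio of Col4a1 to Col4a2 had a median of 0.765 in VTA and 0.67 in NAC, and also stayed below 1 in every library. The ratio of Col6a1 to Col6a2 differed in kind between regions. It was above 1 in 1 of 10 VTA libraries and in 13 of 14 NAC libraries, with medians of 0.584 in VTA and 1.31 in NAC.

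Correlations across libraries were computed for 8 pairs in each region, 16 in all, on log2(CPM + 1) with 100000 permutations and Benjamini-Hochberg adjustment. Col1a1 and Col1a2, the chains of type I, were closely related. In VTA (n = 10) Pearson's r was 0.985 (permutation p 2e-05, adjusted 8e-05) and Spearman's rho 0.988 (permutation p 3e-05, adjusted 0.00024), and r was 0.945 without SAL-sired VTA 1 and 2. In NAC (n = 14) r was 0.955 (permutation p 2e-05, adjusted 8e-05) and rho 0.873 (permutation p 0.00021, adjusted 0.000768), and r was 0.817 without the 2 libraries farthest from the median. Col1a1 and Col3a1 had r of 0.988 in VTA and 0.943 in NAC, and 0.912 and 0.751 without the 2 farthest libraries.

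The head-to-head pair Col4a1 and Col4a2, whose shared gap is printed above, had r of 0.863 in NAC (permutation p 1e-05, the smallest that can be given, adjusted 8e-05, rho 0.912 with permutation p 2e-05), and 0.856 without the 2 farthest libraries. In VTA r was 0.607 (permutation p 0.0666, adjusted 0.0969) and rho 0.648 (permutation p 0.049, adjusted 0.0975). Col5a1 and Col5a2, both of type V, had r of 0.845 in VTA (permutation p 0.00148, adjusted 0.00395, rho 0.867) and 0.957 without the 2 farthest libraries. In NAC r was 0.649, and 0.437 without the 2 farthest. Col6a1 and Col6a2 had r of 0.7 in VTA, which was 0.352 without SAL-sired VTA 1 and 2, and 0.211 in NAC (permutation p 0.433).

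Between families, the relations of Col1a1 in VTA rested on 2 libraries. Col1a1 and Col4a1 had r of 0.742 in VTA (permutation p 0.014, adjusted 0.0249, rho 0.406) and 0.0605 without SAL-sired VTA 1 and 2. In NAC their r was 0.159 (permutation p 0.573, adjusted 0.611, rho 0.371), and r of the deviations from the sire group means was 0.557. Col1a1 and the fibroblast marker Dcn had r of 0.835 in VTA (permutation p 0.00805, adjusted 0.0184, rho 0.709) and 0.0268 without those libraries, and 0.0799 in NAC. Col4a1 and the endothelial marker Cldn5 had r of 0.41 in VTA (permutation p 0.238) and 0.37 in NAC (permutation p 0.193).

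**Figure D5:**
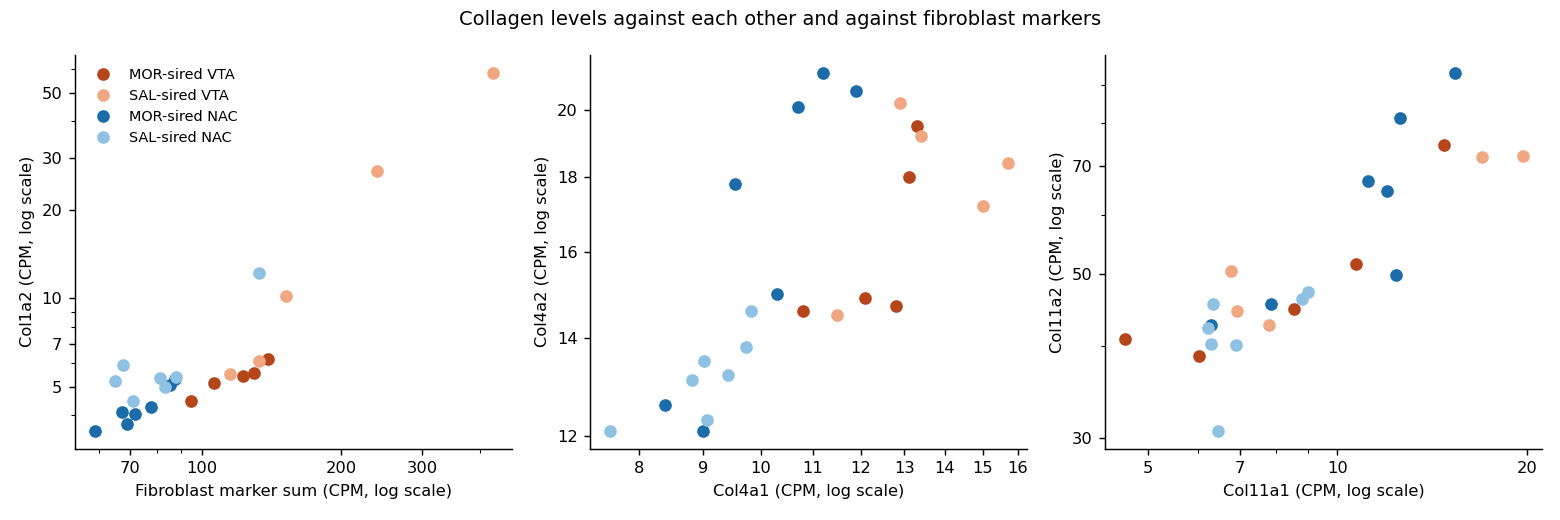
Scatter plots of libraries in CPM, VTA in orange and NAC in blue, for the summed fibroblast markers against Col1a2, for Col4a1 against Col4a2, and for Col11a1 against Col11a2. SAL-sired VTA 1 and 2 lie apart at fibroblast sums of 426 and 240 CPM with Col1a2 at 58.5 and 27.1 CPM. Col4a2 exceeds Col4a1 in every library.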

How the data were processed

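Total RNA libraries were made with a directional kit, per the labels' protocols. The authors deposited 1 table per region of expected counts (estimated counts) per gene. The authors scaled the TPM of each library to its total before they deposited these estimated counts, per the file names, so transcript length is accounted for. Per the submitters' processing notes Trim Galore, kallisto and DESeq2 were used, with no versions. The genome build, the annotation and the strand setting of the counting were not given in the sources used here. Genes overlapping on opposite strands could therefore not be set apart.

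Values were rounded to whole numbers, filtered with filterByExpr, scaled by TMM and entered into the quasi-likelihood test of edgeR 4.0.16 under R 4.3.3. DESeq2 1.42.0 and limma 3.58.1 served as alternatives. Sire groups were tested within each region. VTA against NAC and the difference of the sire effects came from 1 fit of 24 libraries with 4 group means. Tests were two-sided, with adjustment over all genes tested and a threshold of 0.05. A standard error is the log2 fold change over the square root of F. Levels of single libraries are plain CPM, group means TMM-scaled CPM unless stated. Estimated counts are not reads, so no counting interval was computed. No 2 libraries were identical. The scripts were tested on simulated data.

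The members, the gene lists and the rules were chosen with earlier results of these data known. Col1a1, Col1a2, Col3a1, Col4a1 and Col4a2 were always named. Further named collagens were the 6 of smallest p per sire comparison, 3 for the difference and the 3 of highest mean in each region. Between regions they were the 12 called ones of largest fold change with a mean of at least 1 CPM in either region. From each list 2 genes per sire comparison and 3 between regions were named. Any other gene was named with its values known. Alternatives were DESeq2, limma-voom with quality weights, other scalings, no filter, a replicate block, leaving out single libraries, and the settings for the Xist libraries and SAL-sired libraries.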

Additional observations from a re-analysis of the deposited data

Results flagged for a closer look

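In 22 named collagens and 4 groups of libraries, 9 of 88 sets of values held a library whose gap to its nearest neighbour exceeded Dixon's 95% critical value for the group's range. About 1 in 20 would do so for independent values of a normal distribution. The CPM values were not tested for that, and some of these genes, such as Col1a1, Col1a2 and Col3a1, varied together. No excess can therefore be read from the count. The rule can also miss a library when another lies near it. SAL-sired VTA 1, at 58.5 CPM of Col1a2, was not flagged beside SAL-sired VTA 2 at 27.1 CPM. SAL-sired NAC 7 was such a library for all 3 chains of types I and III, with Col1a2 at 12.2 CPM, Col1a1 at 6.54 CPM and Col3a1 at 7.26 CPM. MOR-sired NAC 2 was high for Col3a1, at 3.9 CPM. MOR-sired NAC 5 was high for Col8a1, at 1.19 CPM, and for Col9a1, at 2.9 CPM. SAL-sired NAC 5 was low for Col16a1, at 8.94 CPM, and SAL-sired NAC 2 was low for Col2a1, at 0.378 CPM. In VTA, MOR-sired VTA 2 was low for Col20a1, at 1.16 CPM.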

How the results depend on the processing

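Depth sets a floor for low collagens, since 5 of 44 were not tested in any comparison. Over alternatives other than leaving out 1 library, 750 of 777 fold changes kept their direction and side of the threshold, and 118 of 134 counts stayed within 1.5 times the main count. DESeq2 called 27 genes for sire in VTA, 1 of them a collagen, 4 in NAC and 93 for the difference, where edgeR called 0. limma-voom called 52 in NAC. Without the 4 Xist libraries 7 genes were called for the difference. In VTA against NAC, 11 collagens were at least 2-fold higher under upper-quartile scaling and 11 in SAL-sired libraries alone, where 5 were called lower, against 6 and 9. Without SAL-sired VTA 1 and 2, 5 were at least 2-fold lower, against 3. Upper-quartile scaling put the median of all genes at 0.15 and that of collagens at 0.53, with 24 collagens higher and 7 lower. It called 14457 of all 20603 genes tested, and the SAL-sired libraries alone gave 12048 of 19253. The shares of all genes by direction, or at least 2-fold, were not computed in these settings. The causes were not tested.

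Some log2 fold changes turned sign. For sire in VTA these were Col25a1 at -0.07 without the Xist libraries, -0.12 with Xist as a covariate and -0.05 on library totals, Col9a3 at 0.12 and 0.1 under those first 2 settings, Col4a1 at 0.02 with the covariate and 0.07 without SAL-sired VTA 1 and 2, and Ctsk at 0.05 without those libraries. Between regions Col11a2 was 0 in limma-voom and -0.06 without the Xist libraries, and Col1a1 was -0.14 without SAL-sired VTA 1 and 2. For the difference, Col9a3 was 0.01 without the Xist libraries, and Col1a1, Col1a2 and Col3a1 were 0.26, 0.2 and 0.4 without SAL-sired VTA 1 and 2, against -0.78, -1.35 and -0.6 with all libraries.

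Leaving out 1 library at a time, sire values in VTA ran from -0.1 to 0 for Col4a1, -0.11 to 0 for Col4a2, -0.24 to 0.02 for Col11a2, -0.07 to 0.13 for Col25a1 and -0.1 to 0.05 for Col9a3. Between regions Col11a2 ran from -0.06 to 0.07, and collagens called ran from 18 to 23 higher and 8 to 10 lower. Over all genes the number called ran from 13982 to 14411, and the shares by direction were not computed. Without MOR-sired NAC 4, 13 collagens were positive at an unadjusted p under 0.05 in NAC, and the share of all genes in that setting was not computed. r ran from -0.00689 to 0.534 for Col4a1 and Cldn5 in VTA, from -0.0316 to 0.393 for Col6a1 and Col6a2 in NAC, and from -0.0655 to 0.174 for Col1a1 and Dcn in NAC.

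Same-numbered libraries did not deviate together, with r from -0.16 to 0.155 in VTA, 2 of 5 pairs above 0.1, and from -0.324 to 0.145 in NAC, 1 of 7. With the replicate number as a block, no gene was called for sire (smallest adjusted p 1 for a collagen in VTA and 0.819 in NAC), 7 collagens were negative at an unadjusted p under 0.05 in VTA, and 22 were higher and 7 lower between regions. The share of all genes at that unadjusted threshold was not computed with the block. Between regions the block called 13385 of all 20603 genes tested, and the shares by direction were not computed.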
